A study of Homo sapiens with 16 samples.

Results

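The zinc finger gene clusters of human chromosome 19 were described through the peaks that lay in 5 windows of hg19. Window 1 ran from 19780000 to 24350000, window 2 from 36700000 to 38400000, window 3 from 44350000 to 44950000, window 4 from 52400000 to 54100000 and window 5 from 56800000 to 58900000. A peak belonged to a window when its midpoint lay there. The windows were set by position and not by any value of these lists, and they held 827 of the 192665 peaks of the 12 lists, against 9163 peaks on the rest of chromosome 19. The 2 cell lines compared were MCF-10A, a breast epithelial line that does not form tumours, and MDA-MB-231, a breast cancer line derived from a metastatic site. Both came from stocks kept in the submitters' laboratory, were given no treatment that the labels name, and were used before confluence. The MCF-10A medium held EGF, insulin, cholera toxin and hydrocortisone, and for MDA-MB-231 the labels cite a protocol and list no medium. No gene annotation of hg19 was used, so neither markers of the lines nor the genes inside the windows were checked. Each line gave 2 biological replicates, as the labels call them, for H3K4me3, H3K9me2 and H3K27me3 by chromatin immunoprecipitation and sequencing (ChIP-seq), and 2 input libraries that were not analysed here. Each line is 1 cell line, so a difference between the lines is one between these cultures.

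Genes of the zinc finger family in these clusters arose largely by tandem duplication, and many encode proteins with a KRAB domain, a repressor domain that recruits TRIM28 and, through it, the H3K9 methyltransferase SETDB1. The clusters are known for broad H3K9me3 and HP1 over gene bodies, while their promoters are often CpG-rich and carry H3K4me3, the mark of active and poised promoters. H3K9me3 was not measured here: H3K9me2 is a separate mark of silenced chromatin, deposited mainly by EHMT1 and EHMT2, and H3K27me3 is deposited by the Polycomb complex PRC2 through EZH1 and EZH2. In the RefSeq annotation of GRCh38.p14, 265 of the 1451 protein-coding genes of chromosome 19 (18.3%) have a symbol that starts with ZNF, ZFP, ZSCAN, ZIM or ZIK, and 213 of them stand in runs of 5 or more neighbours. That annotation is of another build than the lists, so no peak was assigned to a gene.

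As examples of promoter sequence in this family, 3 promoters are printed from RefSeq, GRCh38.p14, from 250 bases before to 50 bases after the gene start, 5′ to 3′ on the strand of the gene, with each CpG in capitals. They were chosen as known members of 3 of the clusters and not for any value in these lists.
ZNF91: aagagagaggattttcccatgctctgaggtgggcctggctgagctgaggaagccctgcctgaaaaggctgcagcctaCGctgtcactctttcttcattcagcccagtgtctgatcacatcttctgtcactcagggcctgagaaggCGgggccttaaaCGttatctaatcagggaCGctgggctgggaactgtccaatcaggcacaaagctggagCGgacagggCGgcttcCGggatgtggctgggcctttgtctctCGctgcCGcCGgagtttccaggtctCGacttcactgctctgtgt
ZNF568: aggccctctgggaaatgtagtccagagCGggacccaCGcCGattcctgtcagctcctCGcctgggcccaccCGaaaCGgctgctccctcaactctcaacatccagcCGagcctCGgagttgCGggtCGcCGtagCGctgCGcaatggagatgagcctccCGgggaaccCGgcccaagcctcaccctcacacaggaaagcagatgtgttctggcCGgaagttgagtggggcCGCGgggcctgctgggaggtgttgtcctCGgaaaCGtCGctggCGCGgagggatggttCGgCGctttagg
ZNF544: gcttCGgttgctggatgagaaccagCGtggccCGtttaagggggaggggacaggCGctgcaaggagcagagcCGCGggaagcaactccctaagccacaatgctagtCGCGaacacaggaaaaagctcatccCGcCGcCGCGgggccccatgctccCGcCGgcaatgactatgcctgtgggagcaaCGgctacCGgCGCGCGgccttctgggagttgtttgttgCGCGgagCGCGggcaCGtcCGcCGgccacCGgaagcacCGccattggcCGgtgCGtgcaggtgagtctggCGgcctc
They hold 11, 25 and 31 CpG. The 287 promoters listed for 229 of the zinc finger genes of chromosome 19 had a median of 20 CpG in 300 bases, against 14 over all 35116 promoters of the table. Whether these 3 promoters carried a peak in either line was not tested.

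The windows span 10.67 Mb. The rest of chromosome 19 was taken up to the largest peak end, 59118145, without the windows and without the longest stretch free of peaks in all 12 lists, which ran from 24270768 to 28282540, and measured 44.5 Mb. The lists hold no read counts, so the depth behind a value is not known, and its precision rests on the 2 libraries of each group. The H3K4me3 lists held 15568 to 16776 peaks. The H3K9me2 lists were longer in MCF-10A, at 10656 and 8885 peaks, than in MDA-MB-231, at 6147 and 5045. Of the H3K27me3 lists, that of MDA-MB-231 replicate 1 held 8470 peaks and the other 3 held 28896 to 30496. Values below are therefore given per library, as a share of the window or of chromosome 19. With 2 against 2 libraries a two-sided exact permutation test cannot go below p = 0.333, and a sign-flip test over 4 libraries cannot go below p = 0.125.

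H3K4me3 sites were sparse in window 1 and frequent in window 3, in both lines. MCF-10A replicates 1 and 2 had 21 and 30 peaks in window 1, where MDA-MB-231 had 41 and 43, which is 4.6 and 6.57 against 8.97 and 9.41 peaks per Mb. In window 2 MCF-10A had 25 peaks in each replicate and MDA-MB-231 had 29. The groups did not overlap in either window, and MDA-MB-231 was higher. Window 3, the shortest, had 18 and 19 peaks in MCF-10A against 18 in each MDA-MB-231 replicate, and at 30.0 to 31.7 peaks per Mb it was the densest window in every library. Window 4 held 38 and 42 against 46 and 48 peaks. Window 5 held 49 and 50 against 52 and 51. Over the 5 windows there were 151 and 166 peaks in MCF-10A (158.5 ± 10.6, SD, n = 2) and 186 and 189 in MDA-MB-231 (187.5 ± 2.12, SD, n = 2). The rest of chromosome 19 had 932 and 1026 against 1012 and 1001 peaks, and there the groups overlapped. Sites also stood farther apart in window 1, where the median distance between neighbouring peaks was 84.5 and 72.0 kb in MCF-10A and 64.8 and 62.5 kb in MDA-MB-231. Window 2 followed, at 56.6 to 62.4 kb, and windows 3, 4 and 5 had 21.6 to 32.3 kb over all libraries. The exact permutation test of the window total gave p = 0.333, and that of the rest gave p = 1.

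**Figure D1:**
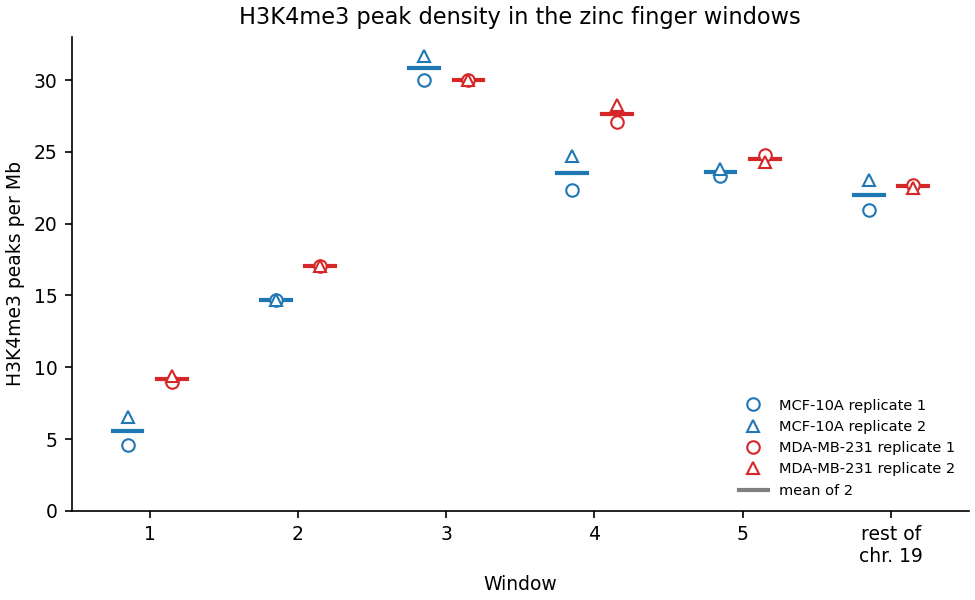
H3K4me3 peaks per Mb in each zinc finger window and on the rest of chromosome 19; each point is 1 library and each bar the mean of 2. Window 1 lies below 10 peaks per Mb in all 4 libraries, with both MDA-MB-231 libraries above both MCF-10A libraries, and window 3 lies at 30.0 to 31.7.

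Set against the rest of the chromosome, H3K4me3 covered less of the windows in all 4 libraries. Peaks covered 1.66% and 1.81% of the windows in MCF-10A and 2.12% and 2.08% in MDA-MB-231, against 2.51% and 2.79%, and 2.79% and 2.88%, of the rest. The mean log2 ratio of windows to rest was −0.52 (exact sign-flip test over 4 libraries, p = 0.125). Window 1 set this value, at −1.85, and window 2 was at −0.30. Windows 3, 4 and 5 were at 0.25, 0.08 and 0.09, above the rest in 4, 3 and 4 of the 4 libraries. Against the rest of chromosomes 1 to 22 and X the direction turned, with a mean log2 ratio of 1.45 for the 5 windows. That background keeps its long peak-free stretches, which raises every ratio to it, whereas that of chromosome 19 leaves out its longest. The peaks of the windows were 46.5 bp wider in the median than those of the rest (mean over 4 libraries, exact sign-flip p = 0.125). Among peaks scored 100 or higher the difference in width was −3.88 bp. The median window peak stood at percentiles 53.2 and 53.9 of the scores of its list in MCF-10A and 57.01 and 54.2 in MDA-MB-231, against 47.7 to 50.0 on the rest of chromosome 19.

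The H3K4me3 cover of 250 kb bins located the difference between the lines. Cover was scaled to each library's total (bp covered in the bin per Mb covered genome-wide), and the log2 of this value plus 10 was tested with limma over all 6092 bins of the genome that were covered in at least 2 libraries. Window bins had their midpoint in a window, and a bin at an edge also holds cover from outside it. Of 38 window bins tested, 12 (31.6%) were higher in MDA-MB-231 and 4 (10.5%) higher in MCF-10A. Among the 12 are 2 that were listed at 0 in MCF-10A and entered the test only through MDA-MB-231. Over all bins 11.6% and 10.3% were called in these directions, and on the rest of chromosome 19 26 and 14 of 161 bins were. Of the 12 bins higher in MDA-MB-231, 6 lay in window 1, 3 in window 2, 2 in window 4 and 1 in window 5. In a fit of bins covered in all 4 libraries, chosen after seeing the data, 10 of 34 window bins (29.4%) were higher in MDA-MB-231 and 5 (14.7%) higher in MCF-10A, against 11.9% and 9.49% of 5344 bins in all, and 34 and 18 of 155 on the rest of chromosome 19. The median log2 ratio of these bins was 0.10 in the windows, 0.05 on the rest of chromosome 19 and 0.00 in all. With cover scaled within each chromosome 8 bins were higher in MDA-MB-231 and 3 higher in MCF-10A.

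Near the start of window 1 were bins with H3K4me3 in MDA-MB-231 alone. The bin from 20000001 to 20250000 was listed at 0 in both MCF-10A libraries and held 5.95 and 6.05 kb in MDA-MB-231. Its neighbour, from 20250001 to 20500000, was also listed at 0 in MCF-10A and held 2.31 and 2.52 kb in MDA-MB-231. These 2 bins are described with no fold and no test, since they were tested only because MDA-MB-231 had cover there. In window 5 the bin from 57000001 to 57250000 held 0.927 and 0.966 kb in MCF-10A against 4.88 and 4.20 kb in MDA-MB-231 (a log2 ratio of 1.99 with SE 0.11; limma, adjusted p = 0.0012). It passed in every alternative that gave it a value. Of the other 9 bins higher in MDA-MB-231, 7 were covered in all 4 libraries, with log2 ratios from 0.42 to 1.71, and in 2, both in window 1, MCF-10A replicate 1 was listed at 0.

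The 4 bins higher in MCF-10A had their midpoint in windows 3 and 5, with log2 ratios from −0.27 to −1.23. The bin from 44250001 to 44500000, which begins before window 3, held 9.36 and 10.8 kb in MCF-10A against 7.55 and 7.20 kb in MDA-MB-231 (a log2 ratio of −0.48 with SE 0.06, limma adjusted p = 0.0070). In each H3K4me3 region of this bin that lay inside window 3, the covered bases of the lines overlapped. The difference is thus not shown for the part inside the window, which was not tested alone. In window 5 the bin from 57500001 to 57750000 held 3.51 and 2.70 kb against 1.51 and 1.45 kb (a log2 ratio of −1.01 with SE 0.18; limma, adjusted p = 0.024). The bin from 44750001 to 45000000, which reaches past the end of window 3, held 3.62 and 4.45 kb against 2.14 and 1.25 kb (a log2 ratio of −1.23 with SE 0.25; limma, adjusted p = 0.032). That last bin lost its call with a pseudocount of 1 (limma adjusted p = 0.056) and with scaling within each chromosome (limma adjusted p = 0.065). Part of its MCF-10A cover lay past the window end, while its MDA-MB-231 cover lay inside. The part inside was not tested alone.

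**Figure D2:**
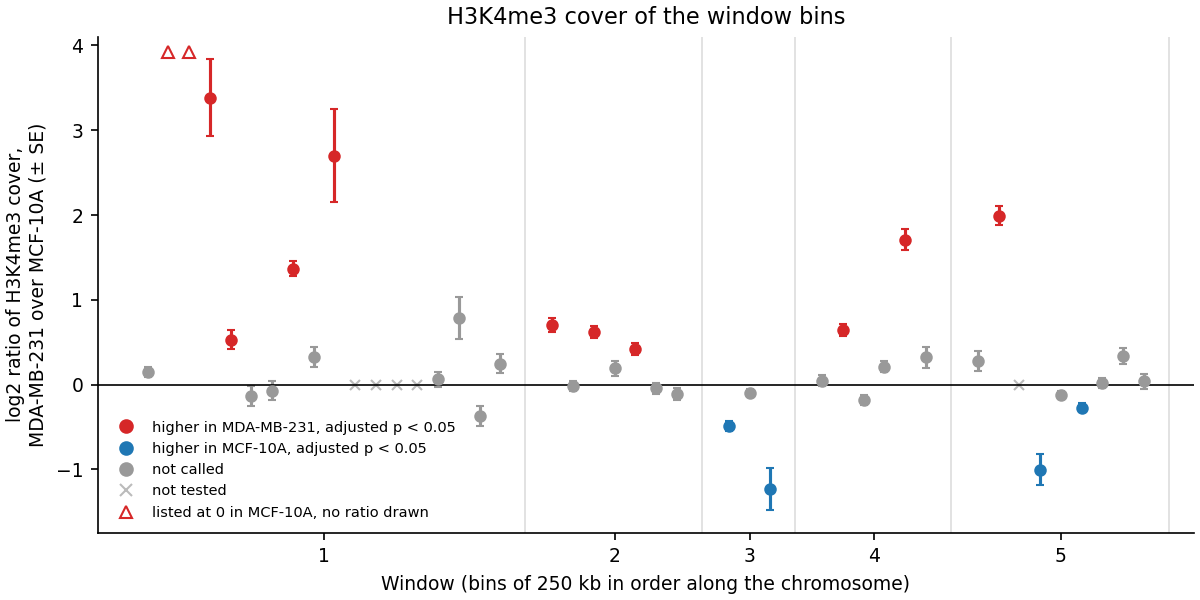
Log2 ratio of H3K4me3 cover, MDA-MB-231 over MCF-10A, with its standard error, for the 43 bins of 250 kb with their midpoint in a zinc finger window; filled coloured points have a limma adjusted p under 0.05, crosses were not tested, and triangles at the top mark 2 bins listed at 0 in both MCF-10A libraries, which have no ratio. The 2 highest points are in window 1, where MCF-10A replicate 1 is listed at 0 and the height depends on the pseudocount of 10, and no bin of windows 1, 2 or 4 was called higher in MCF-10A.

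Single H3K4me3 sites gave the same picture as the bins, from the same peaks. The peaks of the 4 libraries were merged into 197 regions in the windows, of which 135 were shared by all 4. A region held by both replicates of a line and neither of the other is called private to that line. There were 31 regions (15.7%) private to MDA-MB-231 and 6 (3.05%) private to MCF-10A. Over the whole genome 68.5% of merged regions were shared by all 4 libraries, 6.27% were private to MDA-MB-231 and 5.91% private to MCF-10A. On the rest of chromosome 19 the MDA-MB-231 class had 89 and the MCF-10A class 67 of 1098 regions. By window, the regions private to MDA-MB-231 numbered 13, 5, 0, 8 and 5 in windows 1 to 5, and those private to MCF-10A numbered 0, 1, 1, 1 and 3. The share of regions found in all 4 libraries was lowest in window 1, at 47.8% of 46, and highest in window 3, at 89.5% of 19. Windows 2, 4 and 5 had 71.0%, 71.1% and 75.0%. Without MCF-10A replicate 1, the shorter MCF-10A list, the MCF-10A class had 13 regions.

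Some of the regions private to MDA-MB-231 followed one another, and how often this occurs outside the windows was not counted. Regions that lie close count separately: pairs spanned as little as 1.41 kb in window 2 and 1.71 kb in window 4. In window 5 the private region from 58459314 to 58460007 began just after 1 shared by all 4 libraries, from 58458054 to 58459298. In window 1, 6 regions private to MDA-MB-231 in a row, with no other H3K4me3 region between them, spanned 338 kb from 20011086 to 20349414. In window 4, 4 in a row spanned 65.8 kb from 53635408 to 53701174, and in window 1 another 3 in a row spanned 43.6 kb from 21645799 to 21689439. The 3 with the highest scores for their lists lay in window 5 from 58608826 to 58610423, in window 1 from 20606002 to 20608020, and in window 5 from 57078004 to 57079688. In MDA-MB-231 replicates 1 and 2 their peaks spanned 1476 and 1535 bp, 1758 and 2019 bp, and 1685 and 1360 bp, and their scores stood at percentiles 65.8 to 78.9 of those lists. The top 3 of 31 and the top 3 of 6 regions are unlike picks, so their ranks are not compared. The top 3 private to MCF-10A stood at percentiles 30.9 to 51.04. They lay in window 5 from 58661551 to 58662360, in window 3 from 44905098 to 44906087 and in window 4 from 53038929 to 53040087. The one in window 3 overlapped an H3K9me2 peak of MCF-10A replicate 1 by 548 bp. Among the regions in all 4 libraries, the top-ranked lay in window 2 from 38396774 to 38399292 and in window 5 from 57702262 to 57704164 and from 57790868 to 57793123.

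**Figure D3:**
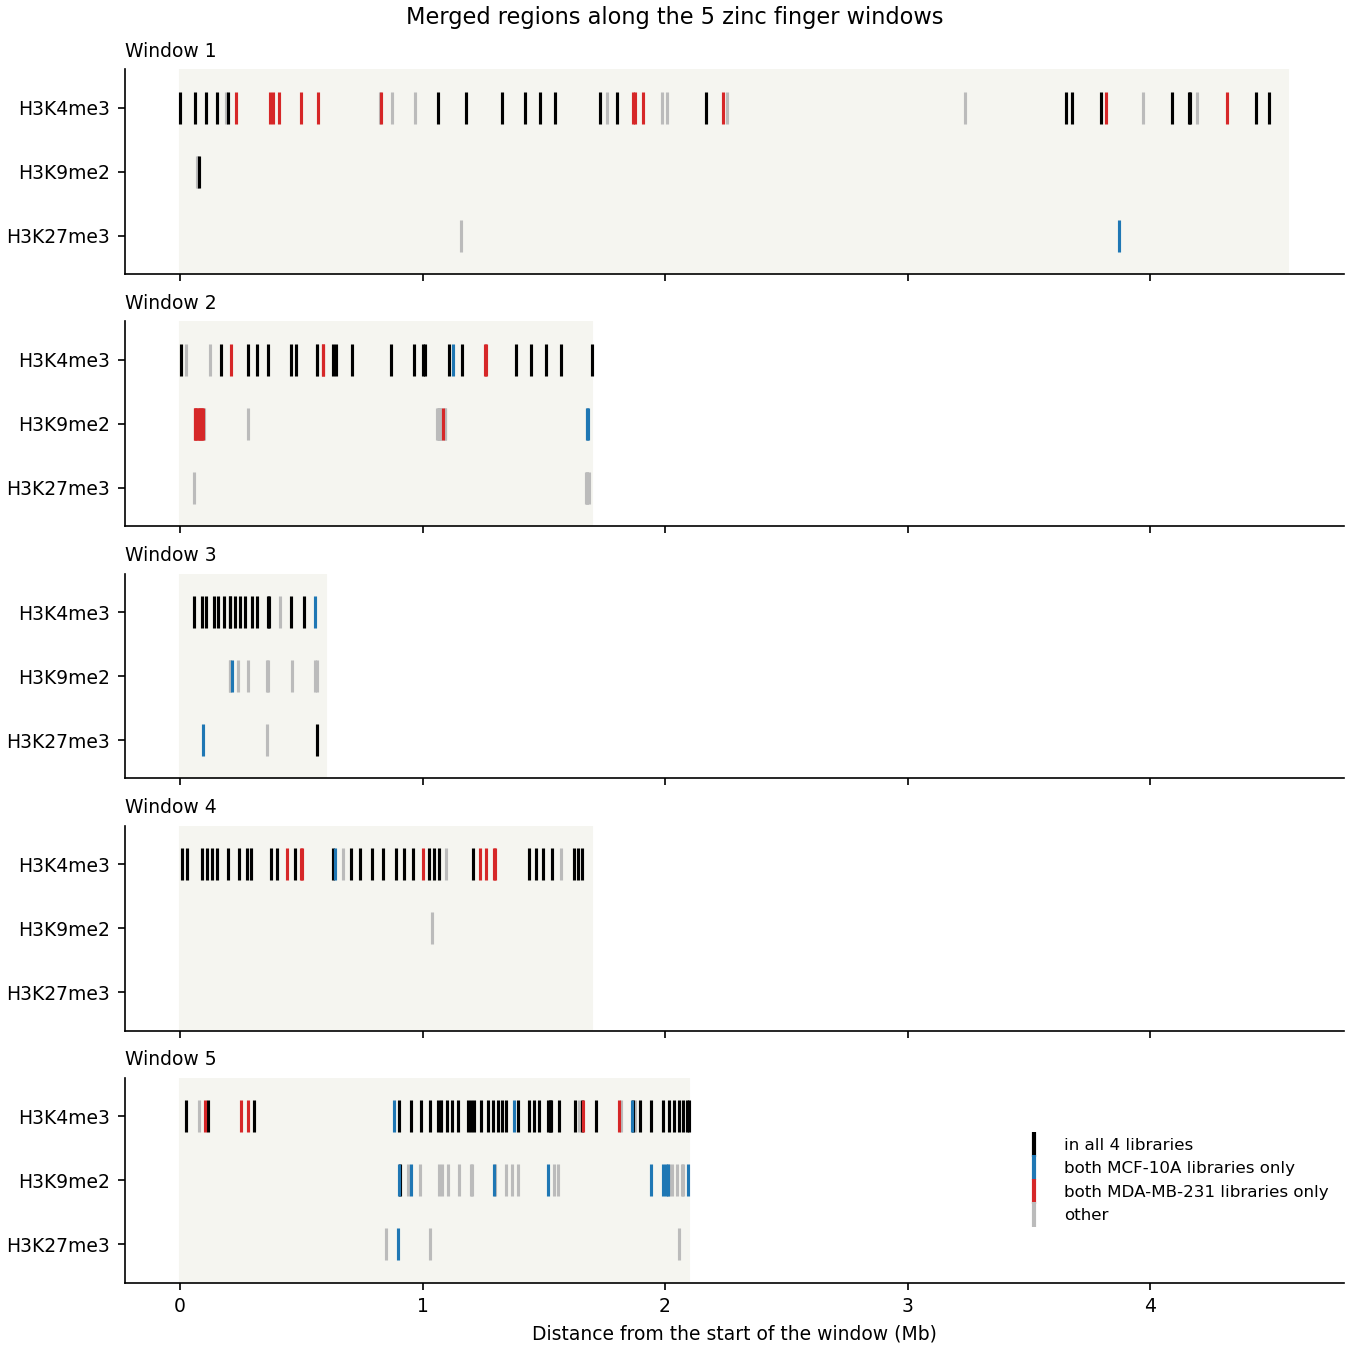
Merged regions of the 3 marks along the 5 windows, by distance from the window start in Mb; each tick is 1 region, coloured by the libraries that hold it, and shading marks the window. H3K4me3 regions private to MDA-MB-231 stand in rows near the start of window 1, and H3K27me3 has no region in window 4.

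None of the 31 H3K4me3 regions private to MDA-MB-231 overlapped a peak of H3K9me2 or H3K27me3 in any library of either line. On the rest of chromosome 19, 13 of the 89 regions of that class (14.6%) overlapped H3K27me3 of both MCF-10A replicates and 25 (28.1%) that of either. Over the genome the shares were 18.04% and 27.2% of 1131 regions. The windows held almost no H3K27me3 to overlap, as given below. Overlap of this class with H3K9me2 was rare elsewhere too. For either MCF-10A replicate it was 4 of 89 (4.49%) on the rest of chromosome 19 and 2.21% of 1131 over the genome. For either MDA-MB-231 replicate it was 0 of 89 and 0.265%. If the regions were independent, a count of 0 in 31 would leave room for a share of up to about 9.68%. Some stand in rows or close pairs, so the room may be wider. For H3K9me2 the count thus sets the windows apart from neither the rest of chromosome 19 nor the genome. Of the regions shared by all 4 libraries, 12 of 135 (8.89%) overlapped H3K9me2 of either MCF-10A replicate and 0 that of MDA-MB-231, against 42 and 1 of 724 on the rest of chromosome 19.

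H3K9me2 was low over the windows as a whole and was concentrated in different windows in the lines. It covered 0.518% and 0.521% of the windows in MCF-10A, against 1.63% and 1.25% of the rest of chromosome 19, and 0.672% and 0.634% in MDA-MB-231, against 1.14% and 0.927%. The mean log2 ratio of windows to rest was −1.06, below the rest in 4 of 4 libraries (exact sign-flip p = 0.125). Against the rest of chromosomes 1 to 22 and X it was 0.26. Window 4 held a single peak, in MCF-10A replicate 2, and window 1 was covered to 0.0445% to 0.193%. As a share of the H3K9me2 cover of chromosome 19, window 1 took 0.822% and 0.333% in MCF-10A and 1.52% and 0.887% in MDA-MB-231, from 1 to 4 peaks per library, and the groups did not overlap (exact permutation p = 0.333). In covered bases they did overlap (exact permutation p = 0.667). Window 1 was covered to 0.141% and 0.0445% in MCF-10A and to 0.193% and 0.0932% in MDA-MB-231.

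In window 2, H3K9me2 covered 3.22% and 3.23% of the bases in MDA-MB-231 replicates 1 and 2, and 0.226% and 0.494% in MCF-10A. Both MDA-MB-231 libraries lay above the rest of their chromosome (log2 ratios 1.49 and 1.80), and both MCF-10A libraries below it (−2.86 and −1.34). As a share of the H3K9me2 cover of chromosome 19, window 2 took 10.4 ± 1.42% in MDA-MB-231 and 0.933 ± 0.625% in MCF-10A (SD, n = 2, exact permutation p = 0.333). In windows 3 and 5 the order was the other way. Window 3 was covered to 1.87% and 1.62% in MCF-10A, mostly at different places in the 2 replicates, and to 0% and 0.318% in MDA-MB-231. Window 5 was covered to 1.61% and 1.59% in MCF-10A and to 0.389% and 0.315% in MDA-MB-231. The groups did not overlap in any of these 3 windows (exact permutation p = 0.333 for each share of chromosome 19). With a score of at least 100 the line difference of window 5 shrank from a log2 ratio of −1.81 to −0.55, and the groups overlapped (exact permutation p = 1).

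**Figure D4:**
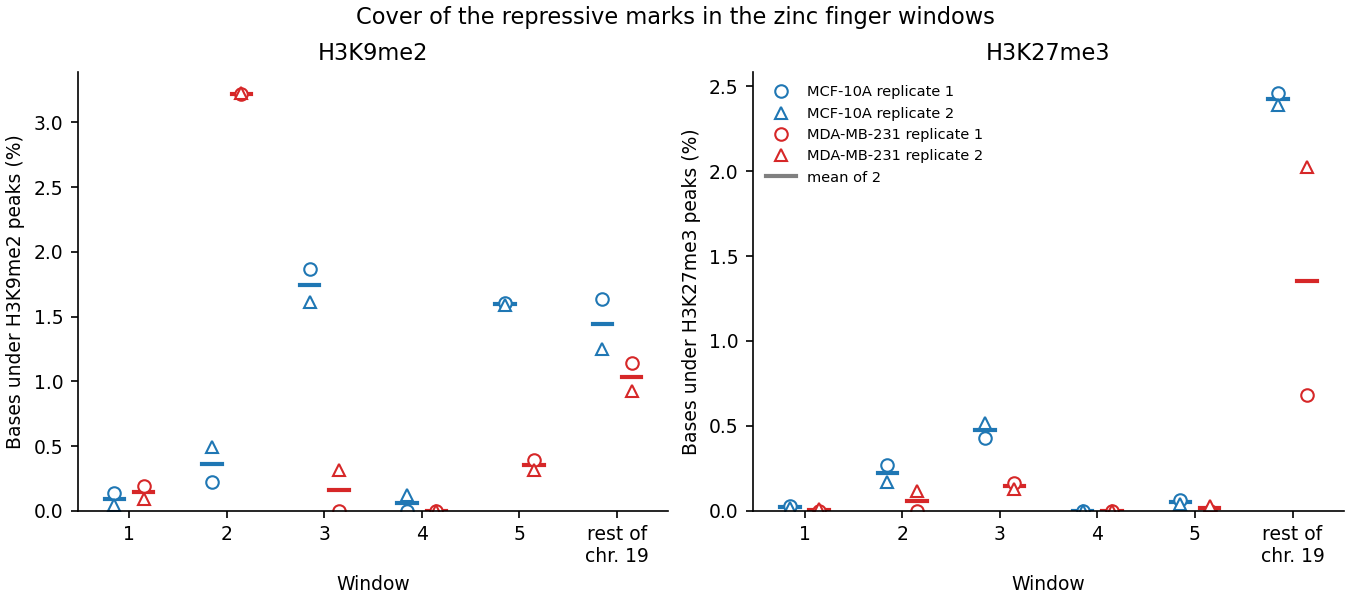
Percent of bases under H3K9me2 peaks (left) and H3K27me3 peaks (right) in each window and on the rest of chromosome 19; each point is 1 library and each bar the mean of 2. H3K9me2 of MDA-MB-231 stands at 3.22% and 3.23% in window 2 while MCF-10A is higher in windows 3 and 5, and H3K27me3 is near 0 in all windows.

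The H3K9me2 of MDA-MB-231 in window 2 came from 2 dense runs of peaks. Runs were defined, after the data had been seen, as 5 or more merged regions under 5 kb apart. The first ran from 36759921 to 36800294 (40.4 kb), and MDA-MB-231 peaks filled 86.02% of it in replicate 1 and 98.2% in replicate 2. In MCF-10A replicate 1 it held no peak, and in replicate 2 it held 1 peak of 1637 bp, which is 4.06% of the run. The second ran from 37760609 to 37794751 (34.1 kb), was covered to 58.4% and 44.6% in MDA-MB-231, and held no peak in MCF-10A. Neither run held an H3K4me3 or H3K27me3 peak in any library. By the same rule there were 6 runs on the rest of chromosome 19 and 86 on chromosomes 1 to 22 and X.

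The peaks of the first run had regular borders. MDA-MB-231 replicate 1 had 11 peaks and replicate 2 had 13, and all 11 starts of replicate 1 lay within 100 bp of a start in replicate 2. Of the 24 peaks, 18 were 2264 to 2522 bp wide and 6 were 4918 to 5098 bp wide. The 3 top-ranked H3K9me2 regions private to MDA-MB-231 were in this run, from 36764888 to 36769985, from 36790289 to 36795320 and from 36777622 to 36782668, at score percentiles of 88.8 to 99.4. The median H3K9me2 peak of the windows stood at percentiles 76.7 and 88.4 in MDA-MB-231, against 47.9 and 50.8 on the rest of chromosome 19, and at 53.9 and 31.6 in MCF-10A, against 58.7 and 56.2. In the second run none of the 8 and 4 peaks of the replicates started within 100 bp of a start in the other replicate, and 1 region of 10193 bp was held by both. The repeat content of the runs was not examined, since no hg19 sequence was used here.

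Outside these runs MDA-MB-231 had no H3K9me2 peak in window 2, and the comparison of the 5 windows together turned on them. The share of chromosome 19 cover in the windows was 13.2 ± 1.23% in MDA-MB-231 and 8.07 ± 1.44% in MCF-10A (SD, n = 2), a log2 ratio of 0.71 (exact permutation p = 0.333). It was 2.63 with a score of at least 100 and 0.33 with covered bases unscaled. Without the runs the log2 ratio was −1.35. The bin of the first run, from 36750001 to 37000000, held 0 and 2.63 kb in MCF-10A against 34.7 and 39.6 kb in MDA-MB-231. That of the second, from 37750001 to 38000000, was listed at 0 in MCF-10A and held 19.9 and 15.2 kb in MDA-MB-231.

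**Figure D5:**
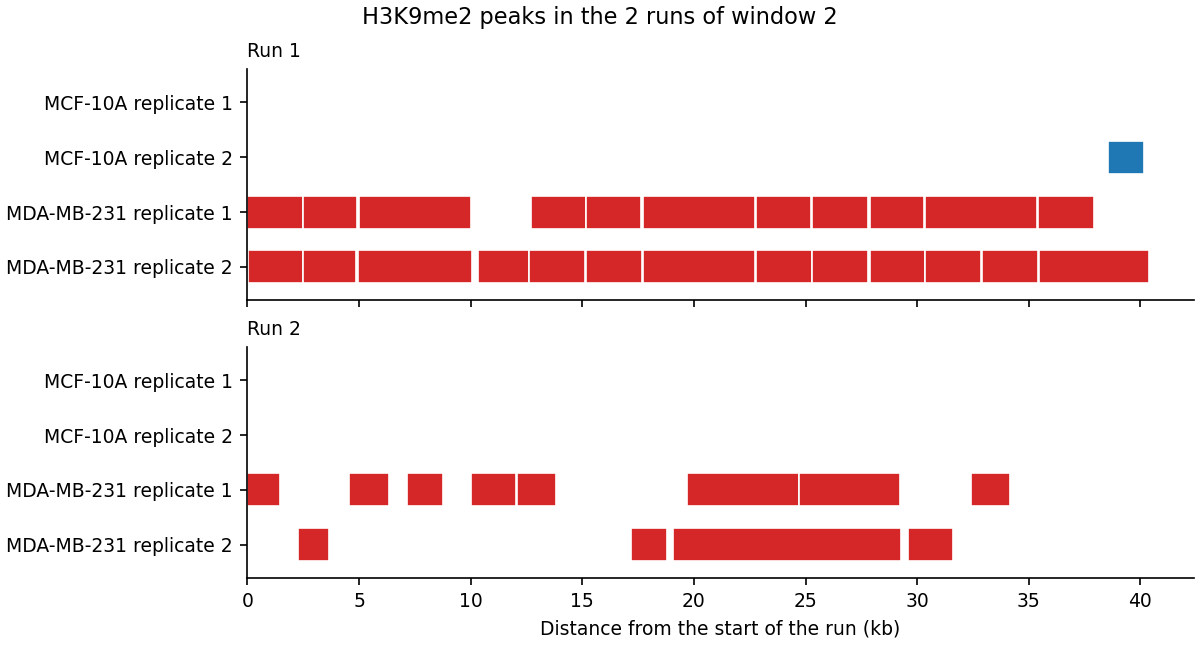
H3K9me2 peaks of each library along the 2 runs of window 2, by distance from the start of the run in kb; each bar is 1 peak and white lines part adjoining peaks. In the first run the peaks of the MDA-MB-231 replicates share most of their borders, and MCF-10A has 1 peak in replicate 2.

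In MCF-10A the H3K9me2 peaks of windows 3 and 5 were scattered, and some overlapped H3K4me3. Window 5 held 17 and 20 peaks in MCF-10A replicates 1 and 2, against 3 and 3 in MDA-MB-231, and window 3 held 5 and 5 against 0 and 1. The places in window 3 mostly differed between replicates: of its 10 merged regions, 1 was held by both MCF-10A libraries. The other 9 (90.0%) were neither private to a line nor shared by all 4 libraries. In window 5 this held for 19 of 29 (65.5%), and over the genome for 62.2%. Of the H3K9me2 peaks in the windows, 8 of 27 (29.6%) and 7 of 32 (21.9%) overlapped an H3K4me3 peak of the same MCF-10A replicate, against 9.09% and 11.3% on the rest of chromosome 19. In MDA-MB-231 0 of 26 and 0 of 22 did, against 0.470% and 1.58% on the rest. Of the 141 H3K4me3 regions of the windows found in both MCF-10A libraries, 13 (9.22%) overlapped H3K9me2 of either replicate and 4 (2.84%) that of both, against 5.87% and 3.67% of 818 on the rest of chromosome 19. The share for either replicate was thus higher in the windows and that for both was lower. With an overlap of at least 50% of the H3K4me3 region the 13 became 1, and with a score of at least 100 they became 2.

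Merged over the 4 libraries, 68 H3K9me2 regions lay in the windows, 12 (17.6%) private to MCF-10A, 10 (14.7%) private to MDA-MB-231 and 2 shared by all. Over the genome these classes held 23.4%, 9.12% and 5.3% of regions. The 10 were all in window 2, in the runs. Of the 12, 9 were in window 5. The top-ranked of the 12 lay in window 3 from 44561688 to 44566114, covered to 4403 and 3191 bp, and the next in window 5 from 57749902 to 57751943 and from 58740685 to 58742936. Both of the latter overlapped H3K4me3 in all 4 libraries of that mark. The 2 regions present in all 4 libraries lay in window 5 from 57706524 to 57710339 and in window 1 from 19856052 to 19863358.

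In bins of 250 kb, H3K9me2 of the windows could hardly be tested. Of 13 window bins with cover in 2 libraries or more, limma called 1 higher in MDA-MB-231, where 12.5% of all bins were called, and 6 higher in MCF-10A, where 49% were. All 7 were listed at 0 in both libraries of the other line and had entered the test only through the line in which they are high, so their calls are not read as support. Of the 6, 4 lay in window 5. They included the bins from 58500001 to 58750000, with 2.18 and 2.21 kb in MCF-10A, and from 58000001 to 58250000, with 5.89 and 6.20 kb. The bin from 38250001 to 38500000, which reaches past the end of window 2, held 5.43 and 5.78 kb. Among bins covered in all 4 libraries, limma called 0 of 3 window bins in either direction, with 1 of the 3 at an unadjusted p under 0.05, where 31.6% of 1147 bins were higher in MDA-MB-231 and 5.49% higher in MCF-10A.

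H3K27me3 was almost absent from the windows in MCF-10A and MDA-MB-231 alike. There were 11 and 9 peaks there in MCF-10A and 1 and 7 in MDA-MB-231, against 1220 and 1179, and 356 and 1348, on the rest of chromosome 19. Peaks covered 0.0927% and 0.0722% of the windows in MCF-10A, against 2.46% and 2.39% of the rest, and 0.00929% and 0.0352% in MDA-MB-231, against 0.679% and 2.03%. The rest of the chromosome was thus covered 26.5 and 33.1 times as densely in MCF-10A, and 73.1 and 57.5 times as densely in MDA-MB-231. The mean log2 ratio of windows to rest was −5.45, below the rest in 4 of 4 libraries (exact sign-flip p = 0.125), and −3.74 against the rest of chromosomes 1 to 22 and X. Without the short list of MDA-MB-231 replicate 1 it was −5.21.

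Window 4 held no H3K27me3 peak in any library, and window 3 was covered most, to 0.432% and 0.516% in MCF-10A and 0.165% and 0.128% in MDA-MB-231. As a share of chromosome 19 cover, the windows took 0.808 ± 0.124% in MCF-10A and 0.371 ± 0.0624% in MDA-MB-231 (SD, n = 2, log2 ratio −1.12, exact permutation p = 0.333), and the groups did not overlap. These shares rest on 1 to 11 peaks per library. The median score percentile of the window peaks was 61.1 and 46.2 in MCF-10A and 52.4 and 6.90 in MDA-MB-231.

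Of 14 merged H3K27me3 regions in the windows, 1 was shared by all 4 libraries, 3 were private to MCF-10A and 0 private to MDA-MB-231, where these classes held 1.77%, 11.1% and 2.99% of regions over the genome. The region in all 4 lay in window 3 from 44914629 to 44917078, where the peaks covered 1132, 2450, 991 and 769 bp in MCF-10A replicates 1 and 2 and MDA-MB-231 replicates 1 and 2. The 3 private to MCF-10A lay in window 1 from 23649767 to 23651498, in window 3 from 44444602 to 44445249 and in window 5 from 57698114 to 57698988. None of the 4 overlapped H3K4me3 in any library. The first of the 3 lay in the bin from 23500001 to 23750000, which held 1.35 and 0.852 kb in MCF-10A and 0 in MDA-MB-231. That was the 1 bin called by limma of 6 window bins tested, higher in MCF-10A, where 37.2% of all bins were called. It too entered the test only through MCF-10A, and its call is not read as support. In the other direction limma called 0 of the 6, where 13.2% of all bins were called, and 1 bin of the 6, the one just named, had an unadjusted p under 0.05. A single window bin was covered in all 4 libraries.

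The repressive marks overlapped each other at few places in the windows. Of the H3K9me2 peaks there, 2 of 27 and 2 of 32 overlapped H3K27me3 of the same replicate in MCF-10A (7.41% and 6.25%), against 21.8% and 21.9% on the rest of chromosome 19. In MDA-MB-231 0 of 26 and 1 of 22 did, against 14.1% and 32.6%. From the side of H3K27me3 the order was the other way in MCF-10A: 2 of 11 and 3 of 9 window peaks (18.2% and 33.3%) overlapped H3K9me2, against 8.44% and 7.13% on the rest. In MDA-MB-231 0 of 1 and 1 of 7 did, against 9.55% and 6.08%. In window 2 all 4 of the MCF-10A overlaps lay near its end, in 2 H3K9me2 regions from 38378445 to 38380759 and from 38382107 to 38384481, which were private to MCF-10A.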

How the data were processed

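Members and lists were chosen with earlier results of these data known. ChIP-seq peaks of 12 libraries were used: 3 marks, 2 lines, 2 replicates. Per the submitters' processing notes, CASAVA 1.6, Bowtie2, MACS 1.4, bedtools and hg19 were used; roles, settings and the use of inputs are not given in the sources used here. The authors deposited 1 list per replicate with a score per peak of unstated scale, at least 50, which served here to rank and select peaks inside its own list and for nothing else. A region of a mark is the merger, at 1 bp overlap, of its 4 libraries' peaks, and a class needs both replicates of a line. Bins of 250 kb were tested with limma (trend, empirical Bayes; Benjamini-Hochberg over all bins, threshold 0.05). P-values measure only the spread between these cultures. Named were, per mark and class, the 3 regions with the highest lower score percentile over the libraries holding them, ties in chromosome order, and, per mark and direction, the 3 called window bins with the smallest p.

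Python 3.11.15, NumPy 2.4.6, pandas 2.3.3, matplotlib 3.10.9, R 4.3.3 and limma 3.58.1 were used. Region classes and the bin test were tested on simulated data. There the bin test missed most smaller differences for H3K9me2 and H3K27me3 and, for H3K9me2, made more false calls than its threshold allows. The bins were also fitted with the replicate number as a block. Alternatives tried were a score of at least 100, lists of equal length, other overlap minimums, bin sizes, pseudocounts and scalings, another background, each library left out, and, added after seeing the data, the H3K9me2 runs left out and bins covered in all 4 libraries.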

Additional observations from a re-analysis of the deposited data

Results flagged for a closer look

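H3K9me2 in window 2 stood on opposite sides of the rest of chromosome 19 in the lines: both MDA-MB-231 libraries were above it and both MCF-10A libraries below it. The log2 ratios of window to rest differed by 3.74, MDA-MB-231 minus MCF-10A, and this difference between the lines was not tested. All H3K9me2 peaks of MDA-MB-231 in that window lay in the 2 runs.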

How the results depend on the processing

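Of 785 alternatives over 114 results, 656 kept their direction (counts also their size within 1.5 times, other values without a test within 1 SD), 99 moved by more, 28 reversed and 2 lost their call. Part of the 656 could not have come out otherwise. A value of 1 line does not change when a library of the other line is left out. Leaving out 1 of its own 2 libraries always keeps it within 1 SD, so there only a reversal could show. The tally is therefore no measure of robustness. Values with a test, the line differences among them, may have changed in size while keeping direction. The background of chromosomes 1 to 22 and X keeps its long peak-free stretches, which raises ratios of windows to it. With the rest of chromosomes 1 to 22 and X as background, several log2 ratios of windows to rest turned, while H3K27me3 stayed negative at −3.74, H3K9me2 of MCF-10A at −0.13 and H3K4me3 of MCF-10A in window 1 at −0.27. H3K4me3 was then 1.45 (1.34 in MCF-10A, 1.57 in MDA-MB-231) over all windows, 0.13 in window 1 (0.52 in MDA-MB-231), 1.67 in window 2 (1.53 and 1.82) and 1.95 in window 4 for MCF-10A. H3K9me2 was then 0.26 (0.64 in MDA-MB-231), 1.09 in window 2 and 0.62 in window 5. With the peak-free stretch kept, H3K4me3 of MCF-10A in window 4 was 0.12 instead of −0.0024, with −0.023 to 0.019 on leaving out a replicate. The line difference of H3K4me3 in window 5 was 0.036 as a share of the genome's cover, 0.084 unscaled and −0.11 to 0.032 on leaving out each library. With a score of at least 100, H3K9me2 was 0.59 over all windows in MDA-MB-231 and −1.21 in window 5 in MCF-10A (−0.26 with equal list lengths, −0.024 to 0.35 leaving out a replicate), and the width difference of H3K4me3 peaks was −3.88 bp. In window 2 the H3K9me2 ratio over both lines, −0.23, ranged from −0.90 to 0.65 on leaving out a library, and the line difference of H3K27me3 in window 3 from −1.62 to 0.32. The H3K9me2 difference over all windows was −1.35 without the runs, 2.63 with a score of at least 100 and 0.33 unscaled, and that of window 5 was −0.55 with that score.

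The score minimum also left 1 H3K9me2 region private to MCF-10A, 4 private to MDA-MB-231 and 0 shared, 0 shared H3K27me3 regions and 2 H3K4me3 regions with H3K9me2, and called 1 H3K9me2 bin higher in MCF-10A, 3 higher in MDA-MB-231 and 2 H3K27me3 bins higher in MCF-10A. Equal list lengths gave 5 H3K9me2 regions private to MCF-10A and 1 shared, 0 shared H3K27me3 regions, 3 H3K9me2 bins higher in MDA-MB-231 and 2 H3K27me3 bins higher in MCF-10A. A minimum of 50% gave 1 shared H3K9me2 and 0 shared H3K27me3 regions, and 1 and 0 H3K4me3 regions of MCF-10A with these marks. Bins of 1 Mb gave 5 H3K4me3 bins higher in MDA-MB-231, 1 higher in MCF-10A and 1 H3K9me2 bin higher in MCF-10A. Bins covered in all 4 libraries gave 0 H3K9me2 bins in either direction and 0 H3K27me3 bins higher in MCF-10A, since 3 and 1 window bins were left. A pseudocount of 50 and unscaled cover each gave 2 H3K9me2 bins higher in MDA-MB-231. Leaving out each library gave 6 to 13 H3K4me3 and 12 to 28 H3K9me2 regions private to MCF-10A, 10 to 21 H3K9me2 regions private to MDA-MB-231 and 2 to 4 shared. For H3K27me3 it gave 3 to 7 private to MCF-10A, 0 to 3 private to MDA-MB-231 and 1 to 3 shared. Called H3K9me2 bins ranged from 0 to 3 higher in MDA-MB-231 and 0 to 7 higher in MCF-10A, and H3K27me3 bins from 0 to 1 and 0 to 5. Except where shown above by the number of bins tested, the cause was not tested.

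Whether same-numbered replicates of the lines shared more than a number is not known. Their deviations correlated by 0.116 over 6092 bins for H3K4me3, 0.013 over 4817 for H3K9me2 and −0.015 over 4788 for H3K27me3. With a replicate block 13 H3K4me3 bins were higher in MDA-MB-231 and 4 in MCF-10A, 2 and 6 for H3K9me2, and 0 and 1 for H3K27me3. Read depth is unknown, so a window listed at 0 may hold signal below the peak threshold.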
